A study of Mus musculus with 8 samples.

Results

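Cell cycle and proliferation genes were examined in liver, as a list of 40 genes matched by symbol to the 55487 genes of the count tables. They share known roles in cell division. They were sorted into 13 genes of G1 phase and of transcriptional control, called G1 members from here, and 12 genes of S phase. The other 15 are genes of G2 phase and mitosis, called mitotic members from here. G1 members include the transcription factors E2f1, E2f8 and Foxm1, and mitotic members include the proliferation markers Mki67 and Top2a, so the class names are approximate. RNA sequencing of whole liver was performed on 4 control mice, numbered 154, 159, 181 and 193, and on 4 Mc1r LKO mice, numbered 141, 156, 157 and 182. Mc1r LKO mice carried the floxed Mc1r fl/fl alleles together with the Alb Cre/+ transgene, which expresses Cre recombinase from the albumin promoter and so deletes the melanocortin 1 receptor in hepatocytes. Control mice were age-matched Mc1r fl/fl animals without Cre, so the loxP-flanked allele was shared by both groups, and an effect of Cre cannot be told apart from that of the deletion. All mice were male and were fed a cholesterol-rich Western diet for 12 weeks from 8 weeks of age. The paper describes the deletion as specific to hepatocytes, and the receptor in other liver cells was not examined here.

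A cell enters the division cycle when D-type cyclins with Cdk4 and Cdk6, followed by E-type cyclins with Cdk2, inactivate the retinoblastoma protein and release E2F transcription factors. E2F targets include the Mcm helicase and the enzymes that supply deoxynucleotides, and the later wave of mitotic genes is driven through the MuvB complex, B-Myb and Foxm1. Most hepatocytes of the adult liver are quiescent, and dividing cells can also be of other kinds, such as resident macrophages.

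Mitotic genes are known to share promoter elements, the CCAAT box bound by NF-Y and the cell cycle genes homology region (CHR) bound by MuvB, while many S-phase genes carry E2F sites. These letters were searched in RefSeq promoter windows of GRCm38.p6, in the 250 bases before each annotated start and on both strands. The box was searched by its name, CCAAT. For the CHR the letters were TTTGAA and, as a known variant of it, also TTCGAA. For E2F they were TTTCCCGC, TTTCGCGC, TTTGCCGC and TTTGGCGC. A window was found for 33 of the 40 members, by symbol. CCAAT was present in 12 of 13 mitotic members (92.3%), 8 of 11 S-phase members (72.7%) and 4 of 9 G1 members (44.4%), compared with 37.5% of the 27025 genes with a window. CHR letters were present in 6 of 13 mitotic members (46.2%), 2 of 11 S-phase members (18.2%) and 1 of 9 G1 members (11.1%), compared with 19.6% of all genes. E2F letters were present in 4 of 11 S-phase members (36.4%), 1 of 13 mitotic members (7.69%) and 1 of 9 G1 members (11.1%), compared with 2.16% of all genes. These matches describe the letters only.

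The 120 bases before the start are given 5′ to 3′ on the gene's strand for 5 of the 6 mitotic members whose window held both CCAAT and CHR letters, and for Mcm6, 1 of the 4 S-phase members with E2F letters. They are shown as examples of these letters in members that were lowest in Mc1r LKO mouse 182, as were mitotic members without CHR letters, such as Ccnb1 and Plk1. The 6 genes were chosen after their values were seen. Capitals mark CCAAT, CHR and E2F letters on either strand, and neighbouring matches may overlap. All 6 genes lie on the minus strand. The stretches are chr7:135716380-135716499 for Mki67, chr11:99024190-99024309 for Top2a, chr4:118437344-118437463 for Cdc20, chr10:69352913-69353032 for Cdk1, chr9:70421555-70421674 for Ccnb2 and chr1:128359706-128359825 for Mcm6.
Mki67: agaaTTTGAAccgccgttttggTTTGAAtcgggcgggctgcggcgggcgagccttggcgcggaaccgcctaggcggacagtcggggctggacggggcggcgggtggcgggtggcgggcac
Top2a: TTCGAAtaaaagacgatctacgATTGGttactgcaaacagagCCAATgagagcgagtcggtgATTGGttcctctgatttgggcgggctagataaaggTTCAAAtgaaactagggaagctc
Cdc20: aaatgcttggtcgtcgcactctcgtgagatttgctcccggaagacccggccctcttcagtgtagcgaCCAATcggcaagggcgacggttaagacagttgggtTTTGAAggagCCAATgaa
Cdk1: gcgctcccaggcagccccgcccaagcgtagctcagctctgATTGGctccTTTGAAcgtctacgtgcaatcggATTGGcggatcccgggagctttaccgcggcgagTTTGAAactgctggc
Ccnb2: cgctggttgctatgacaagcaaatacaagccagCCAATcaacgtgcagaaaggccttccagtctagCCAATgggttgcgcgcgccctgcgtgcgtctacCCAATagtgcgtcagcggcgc
Mcm6: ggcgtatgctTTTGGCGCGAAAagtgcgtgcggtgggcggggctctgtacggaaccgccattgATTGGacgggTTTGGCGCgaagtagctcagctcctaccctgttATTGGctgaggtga
Top2a held 6 CCAAT and 4 CHR matches in its 250 bases, while Ccnb2 held 3 CCAAT matches and 1 CHR match, the latter upstream of the printed stretch. The 3 CCAAT matches of Mki67 also lay upstream of the printed stretch, and Mcm6 held 3 E2F and 2 CCAAT matches.

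Each mouse had between 10773151 (control 159) and 24763375 (Mc1r LKO 157) read pairs counted on genes. Levels are given as counts scaled to a common library size of 1000000 counts with the TMM factors of edgeR (CPM), and 3 counts, the most that an observed 0 leaves possible, amount to 0.121 to 0.279 CPM, depending on the mouse. Mc1r itself had 0 counts in every mouse, so the genotypes could not be checked against it. The reason for the 0 counts was not tested. The tissue label was checked with hepatocyte markers, of which albumin alone was between 51819 and 74793 CPM. To check that the libraries were distinct, mice of the same genotype were compared with counting noise, and the chi-square per degree of freedom was 11.0 or more in every pair. Mc1r LKO mouse 182 stood apart from its group, with 51.1 to 81.9 in this measure against the other 3 Mc1r LKO mice, which were at 11.0 to 22.0 among themselves, and with 21.1 to 36.0 among the control mice. It was the lowest of the 8 mice in 21.7% of the 13400 genes tested and the highest in 20.2%, more than any other mouse in either direction, and values without it are given beside the results it moves most.

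Most members were detected, and mitotic members were detected at low levels. In all, 36 of 40 members were above 3 counts in every mouse. The exceptions were Cdc6, which loads the Mcm helicase onto origins (1 count in control 159 and 3 in Mc1r LKO 182), cyclin B1 (Ccnb1, 0 counts in Mc1r LKO 182), the mitotic kinase Plk1 (1 count in Mc1r LKO 182) and the spindle checkpoint kinase Bub1 (1 count each in control 181 and Mc1r LKO 182). The count of 0 for Ccnb1 allows up to 0.153 CPM and the limit covers counting error only. In total, 31 members had at least 10 counts in every mouse. Per kilobase of exon, the mean level over the 8 mice was highest for Cdk4 at 11.1 CPM per kilobase, followed by Pcna at 8.97, Ccnd1 at 8.15, Cdkn1b at 5.32 and Ccnd3 at 4.31. It was lowest for Cdc6 at 0.0783, Bub1 at 0.10, Foxm1 at 0.199 and Ccnb1 at 0.201. The most abundant members were thus regulators of G1 and Pcna, although other G1 members such as Ccne2 at 0.237 lay below mitotic members such as Ccnb2 at 1.34. In this bulk tissue, fewer cells of a type and less RNA per cell cannot be told apart.

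The comparison of the genotypes asked whether loss of the receptor in hepatocytes was accompanied by a difference in these genes. It found none that passed the threshold. Of the 40 members, 38 passed the filter on low counts, and 0 of the 38 had an unadjusted p under 0.05 in edgeR's quasi-likelihood test together with a log2 fold change of 0.25 or more in either direction, compared with 5.31% of all 13400 genes tested. Without the fold limit the number was 0 as well. DESeq2, limma-voom and edgeR's likelihood ratio test also called 0 members. After Benjamini-Hochberg adjustment, 0 members and 0 of all genes (0%) passed 0.05, and the smallest adjusted p of any gene was 0.118. Fold changes are given as Mc1r LKO over control throughout. They were positive in 16 members and negative in 22, with a median log2 fold change of -0.093 compared with -0.011 over all genes tested, and ranged from -0.92 for Mki67 to 0.36 for Rrm2. The standard errors ranged from 0.09 to 0.79 on the log2 scale, so the intervals of many members were wide. The sign of the median depended on single mice, since it was 0.12 without Mc1r LKO 182, 0.046 without control 159 and -0.16 without control 181.

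**Figure D1:**
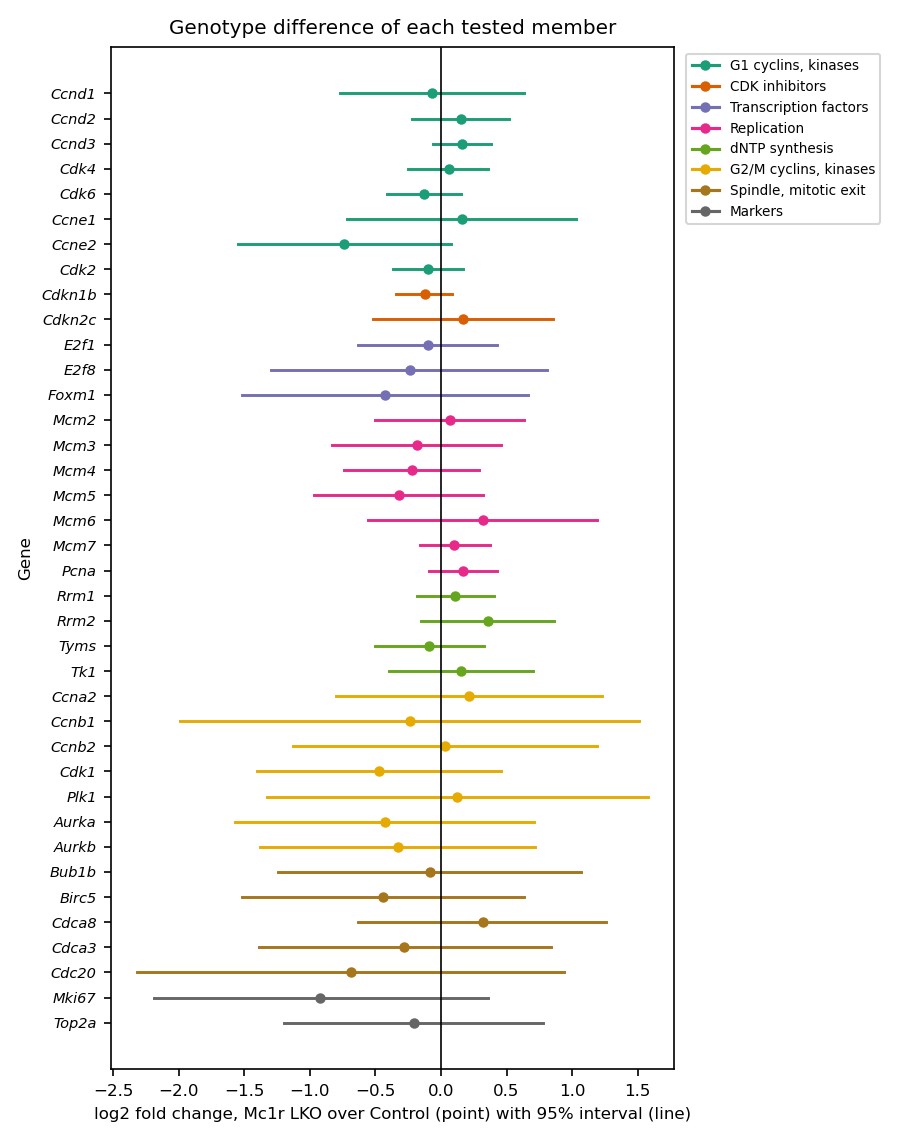
Log2 fold change of Mc1r LKO over control mice (horizontal axis) for each of the 38 members tested (vertical axis), coloured by role, with points for the estimate and lines for the 95% interval. Every interval includes 0, and intervals are widest for the G2/M, spindle and marker genes, such as Ccnb1 from -1.99 to 1.51.

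The groups did not overlap in 1 of the 38 members, compared with 4.16% of all genes tested. This member was cyclin E2 (Ccne2, ENSMUSG00000028212, chromosome 4 from 11191351 to 11204779), a partner of Cdk2 at the entry to S phase. Its levels were 0.851, 0.837, 1.41 and 1.02 CPM in control mice 154, 159, 181 and 193, and 0.760, 0.520, 0.404 and 0.818 CPM in Mc1r LKO mice 141, 156, 157 and 182. All Mc1r LKO mice were below all control mice, although Mc1r LKO 182 and control 159 were close to each other. These levels rest on 8 to 27 counts per mouse. The log2 fold change was -0.74 (SE 0.37), with an unadjusted p of 0.0717 and an adjusted p of 0.771 in the edgeR quasi-likelihood test, the smallest p of any member. Its counterpart Ccne1 was between 0.782 and 2.0 CPM in control mice and between 0.830 and 1.82 CPM in Mc1r LKO mice.

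Among the D-type cyclins, which start the cycle in response to growth signals, Ccnd1 varied most between mice. Cyclin D1 (Ccnd1) was at 50.2, 47.9, 17.5 and 41.5 CPM in control mice 154, 159, 181 and 193. It was at 50.9, 38.5, 37.6 and 22.7 CPM in Mc1r LKO mice 141, 156, 157 and 182. The lowest mouse of each genotype, control 181 and Mc1r LKO 182, was well below the other 3, and the groups overlapped. The log2 fold change was -0.068 (SE 0.32, unadjusted p = 0.833, adjusted p = 0.985). Cyclin D3 (Ccnd3), the member with the most counts, was far steadier, at 34.9, 38.1, 30.5 and 39.3 CPM in control mice and 37.1, 41.7, 42.7 and 38.1 CPM in Mc1r LKO mice. This gave a log2 fold change of 0.16 (SE 0.10, unadjusted p = 0.141, adjusted p = 0.836), and part of its reads could be lost to its annotated pseudogene. The remaining G1 cyclins and kinases, Ccnd2, Cdk4, Cdk6, Ccne1 and Cdk2, had log2 fold changes from -0.13 for Cdk6 to 0.16 for Ccne1, with overlapping groups.

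Neither inhibitor of cyclin-dependent kinases passed the threshold. Cdkn1b, which encodes p27 and holds Cdk2 inactive in quiescent cells, was at 23.2, 28.8, 24.2 and 24.8 CPM in control mice and at 23.4, 24.4, 23.3 and 21.5 CPM in Mc1r LKO mice. It was the member with the smallest standard error, with a log2 fold change of -0.12 (SE 0.09, 95% interval -0.34 to 0.086, unadjusted p = 0.217, adjusted p = 0.862). Cdkn2c, which encodes the Cdk4 and Cdk6 inhibitor p18, was at 5.00, 4.18, 2.40 and 3.87 CPM in control mice and 5.46, 5.59, 3.96 and 2.40 CPM in Mc1r LKO mice. Control 181 and Mc1r LKO 182 were again lowest, at the same level. The log2 fold change of Cdkn2c was 0.17 (SE 0.31, unadjusted p = 0.60, adjusted p = 0.944).

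The transcription factors of the list showed 3 different patterns across mice. E2f1, an activator of S-phase genes, was at 5.90, 7.34, 3.91 and 7.42 CPM in control mice and 6.36, 6.24, 6.22 and 4.09 CPM in Mc1r LKO mice, again with control 181 and Mc1r LKO 182 lowest. E2f8, an atypical E2F that represses E2F targets and is known for its role in hepatocyte polyploidy, was at 3.08, 8.65, 1.46 and 3.1 CPM in control mice and 2.35, 2.66, 3.31 and 4.96 CPM in Mc1r LKO mice. In contrast to most members, E2f8 was higher in Mc1r LKO 182 than in the other Mc1r LKO mice. Foxm1, an activator of mitotic genes, ranged from 0.782 to 2.51 CPM in control mice and from 0.484 to 1.43 CPM in Mc1r LKO mice, and it shares 144 exon bases with other genes of its strand, so its counts are less certain. The log2 fold changes were -0.10 (SE 0.24) for E2f1, -0.24 (SE 0.48) for E2f8 and -0.43 (SE 0.49) for Foxm1.

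No S-phase member passed the threshold, and the median log2 fold change was 0.10 over the 11 tested, of which 7 were positive and 4 negative. This median was 0.18 without Mc1r LKO 182 and 0.0023 without Mc1r LKO 156. Pcna, the sliding clamp of the replication fork, was at 19.5, 22.0, 20.0 and 19.5 CPM in control mice and 25.9, 25.0, 18.7 and 21.6 CPM in Mc1r LKO mice. Mice 141 and 156 were above all control mice, while mouse 157 was below them. The log2 fold change of Pcna was 0.17 (SE 0.12, unadjusted p = 0.176, adjusted p = 0.843). Without Mc1r LKO 157 it was 0.26 with an unadjusted p of 0.0364. Mcm7, a subunit of the replicative helicase whose annotated exons share 172 bases with microRNA genes, was at 13.6, 10.5, 11.9 and 11.6 CPM in control mice and 12.0, 12.3, 14.4 and 12.5 CPM in Mc1r LKO mice, with a log2 fold change of 0.10 (SE 0.12). Both varied less over the 8 mice than the other replication genes.

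The other helicase subunits shared a low value in mouse 182. Mcm5 was at 4.04, 3.81, 3.23 and 4.24 CPM in control mice and 2.14, 4.03, 4.20 and 1.84 CPM in Mc1r LKO mice, which split into a low and a high pair. Its log2 fold change was -0.32 (SE 0.29, unadjusted p = 0.292, adjusted p = 0.889), and -0.13 without mouse 182. Mcm6, named after its values were seen, was at 6.06, 3.53, 4.64 and 6.24 CPM in control mice and 6.57, 10.0, 7.19 and 2.04 CPM in Mc1r LKO mice. The other 3 Mc1r LKO mice were above all control mice, and mouse 182 was below them. Accordingly, the log2 fold change of Mcm6 was 0.32 (SE 0.39, unadjusted p = 0.439, adjusted p = 0.919) with all mice and 0.62 with an unadjusted p of 0.0248 without mouse 182. Mcm2, Mcm3 and Mcm4 had log2 fold changes from -0.22 for Mcm4, which was -0.053 without mouse 182, to 0.065 for Mcm2. Cdc6 was outside the fitted genes, and its mean was 0.299 ± 0.267 CPM in control and 0.520 ± 0.368 CPM in Mc1r LKO mice (SD, n = 4 each, two-sided exact permutation test, p = 0.229, where 0.0286 is the smallest p that 4 against 4 allow).

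Unlike most helicase subunits, none of the 4 enzymes of deoxynucleotide synthesis was lowest in mouse 182. Rrm2, the regulatory subunit of ribonucleotide reductase that is made in S phase, was at 4.63, 5.11, 5.37 and 4.65 CPM in control mice and 3.80, 8.25, 6.22 and 6.95 CPM in Mc1r LKO mice. Thus 3 Mc1r LKO mice, mouse 182 among them, were above all control mice and mouse 141 was below them. Its log2 fold change was 0.36 (SE 0.23, unadjusted p = 0.145, adjusted p = 0.837), and 0.54 with an unadjusted p of 0.0129 without mouse 141. The catalytic subunit Rrm1 was at 10.7, 8.55, 10.4 and 11.9 CPM in control mice and 11.8, 11.2, 11.7 and 10.1 CPM in Mc1r LKO mice. Thymidine kinase (Tk1) was at 5.74, 6.60, 6.25 and 10.2 CPM in control mice and 8.92, 10.9, 5.98 and 6.44 CPM in Mc1r LKO mice, with a single high control mouse and a high pair of Mc1r LKO mice. The log2 fold changes were 0.11 (SE 0.13) for Rrm1, 0.15 (SE 0.25) for Tk1 and -0.089 (SE 0.19) for thymidylate synthase (Tyms).

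Mitotic members were the most variable between mice, and their fold changes had the widest intervals. Of the 14 tested, 4 log2 fold changes were positive and 10 negative, with a median of -0.26, which was 0.080 without Mc1r LKO 182 and 0.079 without control 159. It was -0.46 without control 181 and -0.49 without Mc1r LKO 156, so single mice moved it in both directions. Mki67 (ENSMUSG00000031004, chromosome 7 from 135689784 to 135716361), which encodes the proliferation antigen Ki-67 of cycling cells, was at 8.08, 13.9, 2.50 and 4.97 CPM in control mice 154, 159, 181 and 193. It was at 3.32, 5.85, 5.21 and 0.920 CPM in Mc1r LKO mice 141, 156, 157 and 182, where the last value rests on 18 counts. Control 154 and 159 were above every Mc1r LKO mouse, while control 181 was below 3 of them. The log2 fold change of Mki67 was -0.92 (SE 0.57, 95% interval -2.19 to 0.36, unadjusted p = 0.140, adjusted p = 0.835), the most negative of any member. It was -1.21 with an unadjusted p of 0.0454 without control 181, -0.43 without control 159, -0.57 without Mc1r LKO 182, and -0.86 with an unadjusted p of 0.0397 when both control 181 and Mc1r LKO 182 were left out.

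Top2a, the topoisomerase that untangles replicated chromosomes, was at 3.46, 6.41, 2.03 and 3.59 CPM in control mice and 2.97, 3.38, 5.49 and 1.23 CPM in Mc1r LKO mice. Control 159 was highest and Mc1r LKO 182 lowest, as for Mki67, and the log2 fold change was -0.21 (SE 0.44, unadjusted p = 0.646, adjusted p = 0.957). Cdk1, the kinase that drives entry into mitosis, was at 1.86, 2.60, 1.82 and 2.45 CPM in control mice and 1.24, 1.95, 2.50 and 0.511 CPM in Mc1r LKO mice, with a log2 fold change of -0.47 (SE 0.42, unadjusted p = 0.284, adjusted p = 0.888). Without Mc1r LKO 182 it was -0.17 and without Mc1r LKO 157 it was -0.82. Among its partners, cyclin A2 (Ccna2) was at 2.23, 3.90, 1.35 and 1.67 CPM in control mice and 2.7, 3.77, 3.07 and 0.869 CPM in Mc1r LKO mice. Cyclin B2 (Ccnb2) was at 2.02, 3.25, 0.886 and 2.0 CPM in control mice and 2.0, 3.44, 2.26 and 0.511 CPM in Mc1r LKO mice. The group means of Ccnb2 were nearly equal, 2.04 ± 0.967 and 2.06 ± 1.21 CPM (SD, n = 4 each), with a 95% interval of the log2 fold change from -1.13 to 1.19.

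Of the 5 genes of the spindle and of mitotic exit that were tested, 4 were lowest in Mc1r LKO 182 and 3 were highest in control 159. Cdc20, the activator of the anaphase-promoting complex, was at 2.18, 5.49, 0.417 and 1.83 CPM in control mice and 1.73, 2.40, 1.66 and 0.204 CPM in Mc1r LKO mice, where the lowest value rests on 4 counts. Cdca3, a trigger of mitotic entry, was at 2.98, 8.55, 1.88 and 3.38 CPM in control mice and 4.56, 3.77, 4.04 and 1.18 CPM in Mc1r LKO mice. Both genes were highest in control 159 and lowest in Mc1r LKO 182. The log2 fold changes were -0.69 (SE 0.73, unadjusted p = 0.371, adjusted p = 0.907) for Cdc20 and -0.28 (SE 0.50, unadjusted p = 0.593, adjusted p = 0.944) for Cdca3. The remaining mitotic members tested, Ccnb1, Plk1, Aurka, Aurkb, Bub1b, Birc5 and Cdca8, had log2 fold changes from -0.44 for Birc5 (-0.14 without mouse 182), a subunit of the chromosome passenger complex, to 0.32 for Cdca8, another subunit of it. Bub1 was outside the fitted genes, at 0.344 ± 0.296 CPM in control and 0.530 ± 0.490 CPM in Mc1r LKO mice (SD, n = 4 each, two-sided exact permutation test, p = 0.543).

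**Figure D2:**
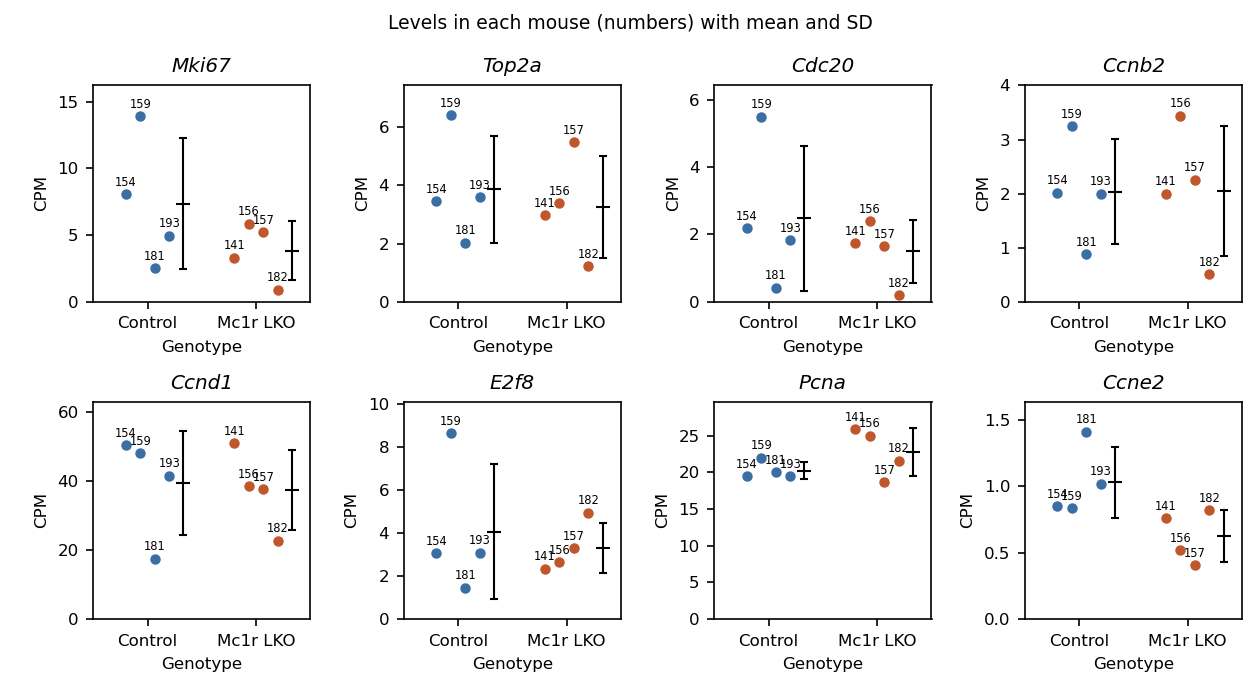
CPM (vertical axes, from 0) of 8 members in control (blue) and Mc1r LKO (orange) mice, with each mouse labelled by its number and bars for the mean and SD of 4 mice. Mki67, Top2a and Cdc20 are highest in control 159 and lowest in Mc1r LKO 182, while Pcna varies little and Ccne2 does not overlap between the groups.

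Mice of the same genotype differed most in mitotic members. The median SD of log2 CPM within genotypes was 0.83 for mitotic members, compared with 0.34 for S-phase members, 0.36 for G1 members and 0.23 for all genes tested, and at low counts it includes counting error. Mc1r LKO 182 was the lowest of the 8 mice in 13 of 14 mitotic members (92.9%), 5 of 11 S-phase members (45.5%) and 4 of 13 G1 members (30.8%). Over all genes tested it was the lowest in 21.7%. The exception among mitotic members was Cdca8, which was lowest in control 181. Control 159 was the highest mouse in 8 of 14 mitotic members (57.1%), compared with 18.1% of all genes tested. These 8 values rest on 16 (Ccnb1) to 149 (Mki67) counts, in the mouse with the fewest read pairs. Control 181 was the lowest mouse in 7 of 13 G1 members (53.8%), compared with 10.8% of all genes tested.

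**Figure D3:**
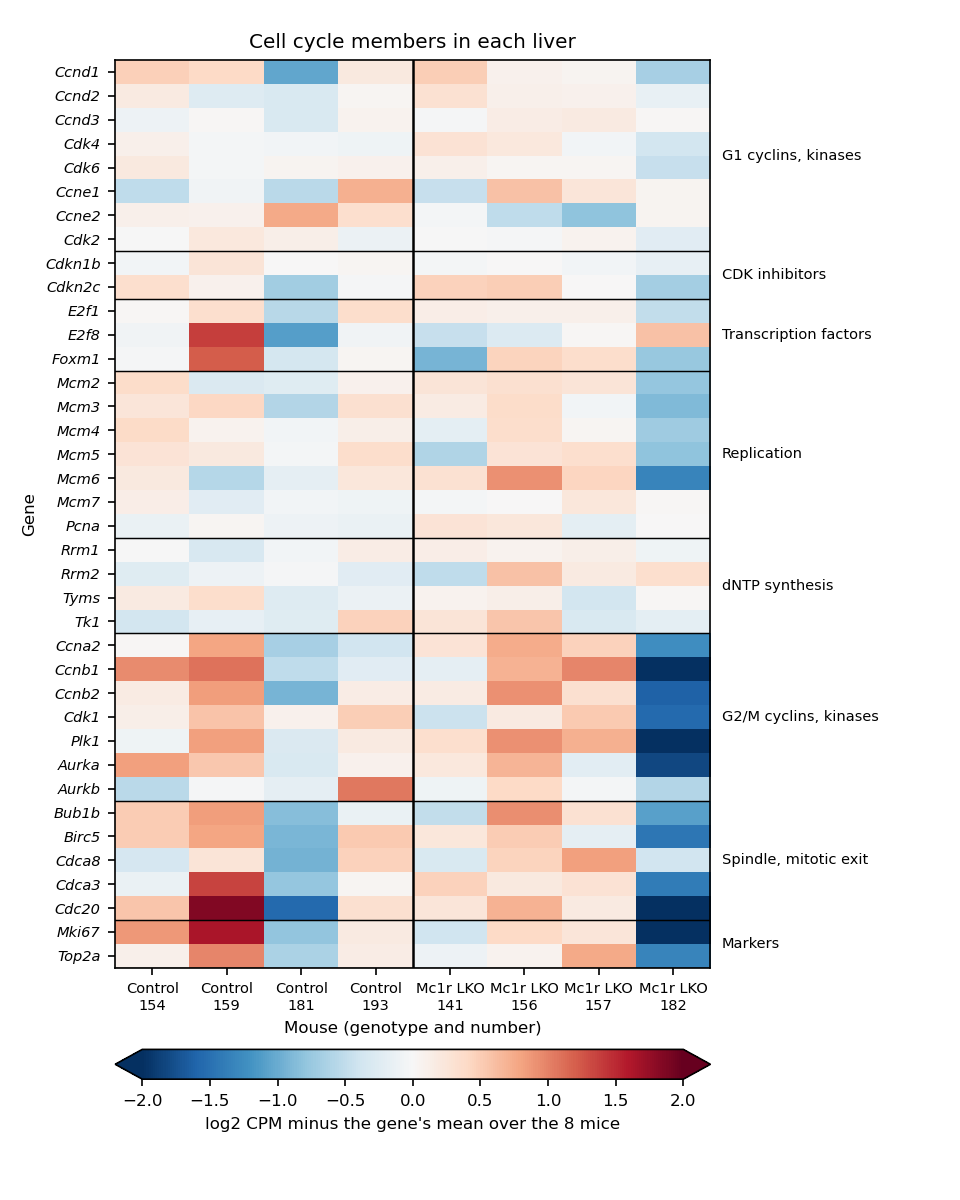
Log2 CPM of the 38 members tested (rows, by role) in the 8 mice (columns), each as the difference from the gene's mean over the mice, on a colour scale from -2 to 2. The column of Mc1r LKO 182 is blue over the G2/M, spindle and marker genes, where it is lowest in 13 of 14, and the column of control 159 is red in many of the same rows.

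Summed over the 15 mitotic members, CPM by library total, without TMM factors, were 34.0, 57.0, 15.1 and 31.6 in control mice 154, 159, 181 and 193 and 27.3, 38.4, 34.3 and 7.49 in Mc1r LKO mice 141, 156, 157 and 182. The exact 95% Poisson intervals, which cover counting error only, were 52.6 to 61.7 for control 159, 13.5 to 17.0 for control 181 and 6.38 to 8.74 for Mc1r LKO 182. The ranges of the genotypes overlapped, and their means were 34.4 ± 17.2 and 26.9 ± 13.7 (SD, n = 4 each), with a 7.61-fold difference between the highest and the lowest mouse. Without Mc1r LKO 182 the mean of the other 3 Mc1r LKO mice was 33.3 ± 5.61 (SD) and the difference between the highest and the lowest mouse was 3.77-fold. Summed over the 12 S-phase members, the values were 101, 90.0, 81.2 and 103 in control mice and 102, 116, 95.7 and 72.6 in Mc1r LKO mice. This was a 1.60-fold difference between the highest and the lowest mouse, which was 1.43-fold without mouse 182. The TMM factor of mouse 182, 0.911, was the lowest, so its sums rise when the factors are used. They were then 79.8 for S-phase members, compared with up to 115 in Mc1r LKO 156, and 8.23 for mitotic members, compared with up to 57.1 in control 159. Mice thus differed far more in mitotic than in S-phase transcripts. Mitotic members made up 38.8% of the S-phase and mitotic counts in control 159 (95% Clopper-Pearson interval 36.4% to 41.2%), 15.7% in control 181 (14.1% to 17.4%) and 9.35% in Mc1r LKO 182 (8.02% to 10.8%). In the other 5 mice the share was between 21.0% and 26.4%.

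**Figure D4:**
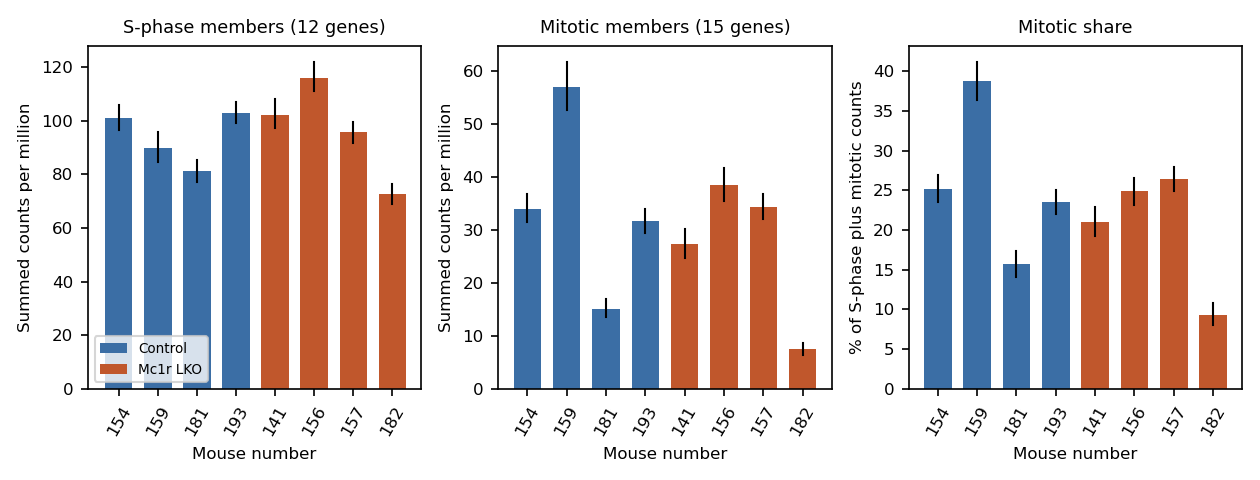
CPM by library total summed over the 12 S-phase members (left) and the 15 mitotic members (middle), and mitotic counts as a percent of both (right), in control (blue) and Mc1r LKO (orange) mice by mouse number, with lines for 95% counting intervals. The S-phase sums lie between 72.6 and 116, whereas the mitotic sums lie between 7.49 and 57.0.

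Markers of macrophages and of B and plasma cells had the same highest and lowest mouse as the mitotic sums. The other marker lists differed in this. The summed level of 6 macrophage markers (Clec4f, Adgre1, Cd68, Csf1r, Vsig4 and Timd4) was 201, 407, 179 and 280 CPM in control mice and 175, 256, 185 and 125 CPM in Mc1r LKO mice. It was highest in control 159 and lowest in Mc1r LKO 182, as was the mitotic sum, and 5 of the 6 markers were lowest in mouse 182. All 6 were above 3 counts in every mouse. For 1 of them, Csf1r, the log2 fold change was -0.77 (unadjusted p = 0.0375, adjusted p = 0.734 in the edgeR test). It was 1 of 31 markers tested over all lists to pass the unadjusted limits, compared with 5.31% of all genes. Mouse 182 was also lowest for the summed markers of sinusoidal endothelial cells (101 CPM, compared with 132 to 161 CPM in the other mice) and stellate cells (186 CPM, compared with 201 to 355 CPM), with 4 of 4 and 3 of 4 markers lowest in it. Mouse 182 was highest for the summed 6 hepatocyte markers, at 103923 CPM, compared with 71869 to 91456 CPM in the other mice. Most of this sum was Alb alone, at 74793 CPM in mouse 182. Cps1, Fah and Cyp2e1 were also highest in mouse 182, whereas Apoa1 and Ttr were highest in control 159. Markers of B and plasma cells were summed to between 1.38 and 5.67 CPM, with Ms4a1 and Mzb1 at 0 in some mice, and were lowest in mouse 182 and highest in control 159. Markers of T and NK cells were summed to between 1.17 and 5.58 CPM, with Klrb1c at 0 in some mice, and were highest in control 159 and lowest in Mc1r LKO 156. Neutrophil markers lay between 2.63 and 6.10 CPM, with Elane, Mpo and Ngp at 0 in some mice, with the lowest sum in Mc1r LKO 141, and cholangiocyte markers between 6.10 and 16.5 CPM, with 12.9 CPM in mouse 182. Of 5 erythroid markers (Alas2, Slc4a1, Epor, Hba-a1 and Hbb-bt), Slc4a1 was at 0 in 1 mouse. Their sum was highest in Mc1r LKO 182 (151 CPM) and control 181 (148 CPM), which had the lowest mitotic sums. It was lowest in control 154 (86.5 CPM). Most of this sum was Alas2 alone, at 131 CPM in Mc1r LKO 182 and 124 CPM in control 181. Hba-a1, in contrast, was lowest in Mc1r LKO 182 and control 193, both at 14.8 CPM, and highest in Mc1r LKO 156 at 37.3 CPM. The part of these cells in the levels of the cell cycle genes was not tested.

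Other genes of the cell cycle gave a similar picture in the comparison of the genotypes. Of 133 further genes of the restriction point, arrest, replication and mitosis, 118 were tested. Of these, 2 passed the unadjusted p and fold limits, compared with 5.31% of all genes tested. Both were lower in Mc1r LKO mice, a direction called in 2.66% of all genes tested. The median log2 fold change of the 118 was -0.081. The groups did not overlap in 5 of the 118, compared with 558 of all 13400 genes tested (4.16%). Mc1r LKO mice were lower in 4 of the 5, and in 206 of the 558. Incenp, the scaffold of the chromosome passenger complex that also holds Birc5 and Cdca8, was at 4.25, 4.65, 3.18 and 3.67 CPM in control mice and 2.42, 3.05, 2.22 and 2.15 CPM in Mc1r LKO mice. The groups did not overlap, and the log2 fold change was -0.68 (SE 0.22, unadjusted p = 0.0104, adjusted p = 0.734). E2f2, an activator like E2f1, was at 2.02, 1.95, 2.34 and 1.96 CPM in control mice and 0.760, 1.3, 1.45 and 1.48 CPM in Mc1r LKO mice, again without overlap, with a log2 fold change of -0.71 (SE 0.28, unadjusted p = 0.0274, adjusted p = 0.734). Cdkn1a, which encodes the p53-responsive inhibitor p21, was at 68.0, 41.7, 29.5 and 23.9 CPM in control mice and 30.1, 58.7, 84.4 and 101 CPM in Mc1r LKO mice. The groups overlapped, with a log2 fold change of 0.75 (SE 0.39, unadjusted p = 0.0799, adjusted p = 0.774). Mouse 182, with the lowest mitotic sum, had the highest Cdkn1a level, whereas control 181, with the second lowest mitotic sum, had one of the lower levels.

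The extremes seen in the mitotic members recurred in mitotic genes outside the list. Mc1r LKO 182 was the lowest mouse in 33 of 47 other mitosis genes (70.2%) and in 12 of 41 other replication genes (29.3%). Over all genes tested it was the lowest in 21.7%. Control 159 was the highest mouse in 22 of the 47 other mitosis genes (46.8%).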

How the data were processed

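Total RNA of whole liver was sequenced on a NovaSeq instrument after stranded mRNA library preparation. Per the submitters' processing notes and the file headers, the authors trimmed reads with Trim Galore 0.6.6, aligned them with STAR 2.7.6a and counted read pairs on the Ensembl genes of GRCm38 with Subread 2.0.1, and they deposited these raw counts for each mouse, neither normalized nor filtered. Counting used strand option 2, which keeps antisense genes apart, but reads shared with overlapping genes of the same strand (Foxm1, Mcm7 and Top2a) or with named pseudogenes (Ccnd3, Pcna, Tyms, Ccnb1 and Ccnb2) could be lost. The text of the methods writes GRCh38 for the mouse genome.

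From the deposited counts, genes were kept by filterByExpr with defaults (minimum count 10, minimum total 15), and the 13400 genes that passed were scaled by TMM. The quasi-likelihood functions glmQLFit and glmQLFTest of edgeR 4.0.16 gave the tests under R 4.3.3, and p-values were adjusted by Benjamini-Hochberg over all of these genes. The methods name the filter, TMM and the limits of 0.05 and 0.25. SE was the absolute log2 fold change divided by the square root of F. In simulated counts for this comparison over 13391 genes, 64 of 98 genes changed 2-fold passed an adjusted p of 0.05. So did 93 of 98 changed 4-fold and 8 of 13195 unchanged genes. The changed genes were drawn from all genes that passed the filter, for which the median SE was 0.16. It was 0.34 for members and 0.51 for mitotic members, so these rates do not carry over to them. CPM of every gene used the TMM factors. Sums over genes used plain counts per library total. Groups came from the sample descriptions, mice are separate animals, and no batch is named.

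The 40 members and the lists of other cell cycle genes and of markers were chosen with earlier results of these data known. All members are named. Values in every mouse are given for the 8 members with the smallest unadjusted p, for Mki67 and Top2a and for the 2 members of each role with the most counts, and of the other genes for those past the unadjusted limits and Cdkn1a. Other genes given by mouse, and those named for an extreme value, were chosen after their values were seen. A marker gene is not reported here. Alternatives were DESeq2 1.42.0, the likelihood ratio test of edgeR, limma-voom (limma 3.58.1), RLE and upper quartile factors, library size only, other filters and leaving out each mouse. Leaving out control 181 and Mc1r LKO 182 together was chosen after seeing the data. Genotype differences in the values that describe several members, such as sums and medians, were not tested.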

Additional observations from a re-analysis of the deposited data

Results flagged for a closer look

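Among members, 4 values lay apart from the other 3 mice of their genotype by more than Dixon's 95% limit for the gap as a part of the range of 4 mice. This was checked in 88 groups of 4 mice, which were the 40 members and 4 summed measures in each genotype, in which chance flags about 1 in 20, or 4.40 groups, close to the 4 found. For 3 of them the mouse was Mc1r LKO 182. Cdk6, the partner of D-type cyclins, was at 21.7 CPM in it (425 counts), compared with 30.7 to 32.3 CPM in the other Mc1r LKO mice. E2f1 was at 4.09 CPM (80 counts), compared with 6.22 to 6.36 CPM. Mcm2, a helicase subunit, was at 4.29 CPM (84 counts), compared with 8.81 to 9.29 CPM. The fourth value was Foxm1 in control 159, at 2.51 CPM (27 counts) compared with 0.782 to 1.06 CPM in the other control mice. No mitotic member was among the 4.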

How the results depend on the processing

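The count of 0 members past an adjusted p of 0.05 held under all alternatives run, and the count of 0 past the unadjusted limits held under all that kept the 8 mice. Of 297 fold changes recomputed with all mice, 293 kept their direction, and 4 turned under limma-voom, namely E2f8 (0.13), Mcm2 (-0.018), Ccnb2 (-0.094) and Plk1 (-0.50). With mice left out, 39 of 342 fold changes turned, in 20 members, and the cause was not tested. The ranges of the log2 fold changes were -0.31 to 0.12 (Ccnd1), -0.027 to 0.18 (Cdk4), -0.020 to 0.59 (Ccne1), -0.0079 to 0.38 (Cdkn2c), -0.27 to 0.040 (E2f1), -0.76 to 0.40 (E2f8), -0.66 to 0.017 (Foxm1), -0.026 to 0.27 (Mcm2), -0.37 to 0.028 (Mcm3), -0.19 to 0.025 (Tyms), -0.027 to 0.38 (Tk1), -0.014 to 0.57 (Ccna2), -0.75 to 0.19 (Ccnb1), -0.33 to 0.37 (Ccnb2), -0.17 to 0.54 (Plk1), -0.54 to 0.25 (Aurkb), -0.52 to 0.20 (Bub1b), -0.52 to 0.30 (Cdca3), -1.05 to 0.0096 (Cdc20) and -0.60 to 0.12 (Top2a). Members past the unadjusted limits numbered 0 to 1 with mice left out, in 5 of the 342 fold changes. Mki67 passed without control 181, and without control 181 and Mc1r LKO 182 together. Rrm2 passed without Mc1r LKO 141, Pcna without Mc1r LKO 157 and Mcm6 without Mc1r LKO 182. For Rrm2, Pcna and Mcm6 the mouse left out was the Mc1r LKO mouse below all control mice. Leaving it out lowers the p by itself. Members whose groups did not overlap numbered 1 to 3 with mice left out (3 without control 154, and 2 without control 181, Mc1r LKO 141 or Mc1r LKO 182), 0 with no filter beyond 1 count and 0 with at least 10 counts in every mouse, where Ccne2 is not kept. Other cell cycle genes past the unadjusted limits numbered 2 with all mice, 4 under limma-voom, 4 with library size only, 5 with no filter beyond 1 count and 2 to 7 with mice left out (7 without control 159, 6 without Mc1r LKO 156, 5 without control 181, and 4 without Mc1r LKO 141 or Mc1r LKO 182). The summed level of S-phase and mitotic members in control 159 was 1.11 times the median mouse, and 1.34 times without Mcm2 to Mcm7 and Pcna. Depth limits the mitotic members, of which Ccnb1 and Plk1 had at most 1 count in Mc1r LKO 182, and the 4 mice per group limit the width of the intervals. With Mc1r at 0 counts in all mice, the genotypes were not checked.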
